A study of Mus musculus with 9 samples.

Results

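The 39 genes described here encode the enzymes that make and spend glutathione, the peroxiredoxin and thioredoxin systems, superoxide dismutases and catalase, the NRF2 pathway that controls many of them, and subunits of the phagocyte NADPH oxidase. They were picked as a list of gene names, with earlier results of these data known, and all 39 were found among the 24312 genes of the table and passed the filter for testing, which 11783 genes did. Expression had been measured by bulk RNA-seq in macrophages sorted from the liver of WT male mice as Ly6C-low F4/80+ cells. The ND group had stayed on normal diet. The 7w and 10w groups had received CDA-HFD for 7 and 10 weeks. This diet is rich in fat, lacks choline and replaces protein by amino acids, and it leads to steatohepatitis and liver fibrosis. Its methionine content is given in the study's methods as a fraction of a percent. The part of methionine supply in the changes described here was not tested. Each group held 3 libraries, 9 in all, given as biological replicates and named here by group and number. Mice were young adults per the study's methods, and no age was given for single animals.

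Superoxide is made by NADPH oxidase in phagocytes and as a by-product of respiration in mitochondria, and superoxide dismutases turn it into hydrogen peroxide. Catalase, glutathione peroxidases and peroxiredoxins then remove the peroxide, the peroxidases at the cost of glutathione and the peroxiredoxins at the cost of thioredoxin, and both are reduced again with NADPH. The transcription factor NRF2 is held at a low level by KEAP1, which presents it for degradation until electrophiles or oxidants modify KEAP1, and NRF2 then raises glutathione synthesis and many detoxifying enzymes. In liver macrophages the same chemistry serves killing of microbes, handling of heme and iron, and defence against oxidized lipids.

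Values are FPKM, read counts scaled for transcript length and sequencing depth, which puts levels of different genes on a per-length scale. Removal of duplicate reads caps that scale, so the highest genes are understated against the low ones: with a correction for the cap the ND mean of Cyba was 585 in place of 324 FPKM and that of Gpx1 556 in place of 305. The depth behind them was estimated from the steps of low values at between 5410860 and 6182020 reads per library, and the 39 genes together made up 0.903% to 0.912% of the table in ND, 0.998% to 1.02% at 7w and 0.929% to 0.964% at 10w. Differences are log2 fold changes of FPKM + 1 with their standard error (SE) from limma, fitted over all genes tested. A gene was called at a Benjamini-Hochberg adjusted p below 0.05 over those genes, and "rose" and "fell" are used only of called genes. The main comparison sets the mean of 7w and 10w against ND. The labels give separate samples and the study draws each as an individual animal.

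The sort was checked against marker genes. Adgre1, which encodes F4/80, was at 252 to 265 FPKM in ND and 191 to 204 in the CDA-HFD libraries, and Csf1r at 274 to 288 and 221 to 234. The resident Kupffer cell list fell for 11 of 12 genes, and its summed level was 2978 to 3153 FPKM in ND, 1662 to 1887 at 7w and 1604 to 1791 at 10w. The Kupffer cell marker Timd4 went from between 200.2 and 207 to between 2.21 and 18.5 FPKM. All 9 genes of the lipid- and scar-associated macrophage list rose, from a sum of 270 to 309 FPKM to 1683 to 1799 at 7w and 1532 to 1612 at 10w, and 8 of 10 tested monocyte markers rose, with Ly6c2 at 0 to 1.51 FPKM in ND and 32.1 to 79.8 in CDA-HFD. Plac8 of the monocyte list fell. Hepatocyte genes summed to 650.0 to 1093 FPKM in ND, 472 to 538 at 7w and 432 to 487 at 10w. Of 18 tested 15 fell and 2 rose, among them Hp (14.0 to 33.3 FPKM in ND and 77.6 to 143 in CDA-HFD). Erythroid genes summed to 42.2 to 48.3 FPKM in ND and 0.093 to 13.2 in CDA-HFD, where 3 of 4 fell, and 3 of 4 B cell genes fell, with a sum of 91.6 to 121 in ND, 71.6 to 83.9 at 7w and 80.4 to 100.3 at 10w. Of 7 endothelial genes 4 rose and 2 fell. Both tested stellate cell and fibroblast genes rose, on a sum of 1.89 to 4.56 FPKM in ND and 8.50 to 22.0 in CDA-HFD. Neutrophil genes summed to 45.5 to 139 FPKM in ND, 79.2 to 129 at 7w and 77.4 to 220 at 10w. Of 4 tested neutrophil genes 1 rose and 1 fell. Of 6 tested T and NK cell genes 1 rose (sum 13.9 to 64.5 FPKM over all libraries). Of 4 tested dendritic cell genes 1 rose and 1 fell (sum 4.51 to 34.3). The 1 tested cholangiocyte gene was not called (sum 0 to 2.73). Of 15 immediate early and dissociation genes 12 rose, and the list summed to 1117 to 1510 FPKM in ND, 2126 to 2339 at 7w and 2156 to 2219.7 at 10w. None of these lists had a gene at 0 in every library. Marker levels therefore differed between ND and CDA-HFD, and a change in the makeup of the sorted cells and a change in RNA per cell cannot be told apart in bulk samples.

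In CDA-HFD against ND, 22 of the 39 genes were called, 14 up and 8 down, where 47.0% of all genes tested were called, 22.8% up and 24.3% down. The median log2 fold change of the 39 genes was 0.07, and that of all genes tested was -0.03. Nqo1, Srxn1, Prdx6 and Mgst2 rose by at least 2-fold, and Gsta4 fell by at least 2-fold (7.23% of all genes rose and 9.24% fell by that much). Nqo1 (0 to 0.54 FPKM in ND) and Mgst2 (0 to 1.40) passed the filter of 1 FPKM in 3 libraries only through CDA-HFD libraries. Their calls therefore lean on the group where they are high. In 17 of the 39 genes no CDA-HFD library overlapped with an ND library, 12 above and 5 below, against 40.6% of all genes, 19.3% above and 21.3% below. The share called in either direction was thus near the background, and the balance of directions leaned upward more than among all genes. Because the 39 genes were chosen with earlier results of these data known, this balance only describes them and is no test of the pathway. That balance depends on the scaling: with trimmed-mean scaling 17 rose and 5 fell, where all genes also shifted upward (25.5% up and 22.2% down). With quantile normalization the median of the 39 was 0.06, and that of all genes -0.0022. Of the 39, 4 fell without ND 3 (19.7% of all genes), 5 without ND 2 (19.6%) and 5 without 10w 1 (23.9%).

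**Figure D1:**
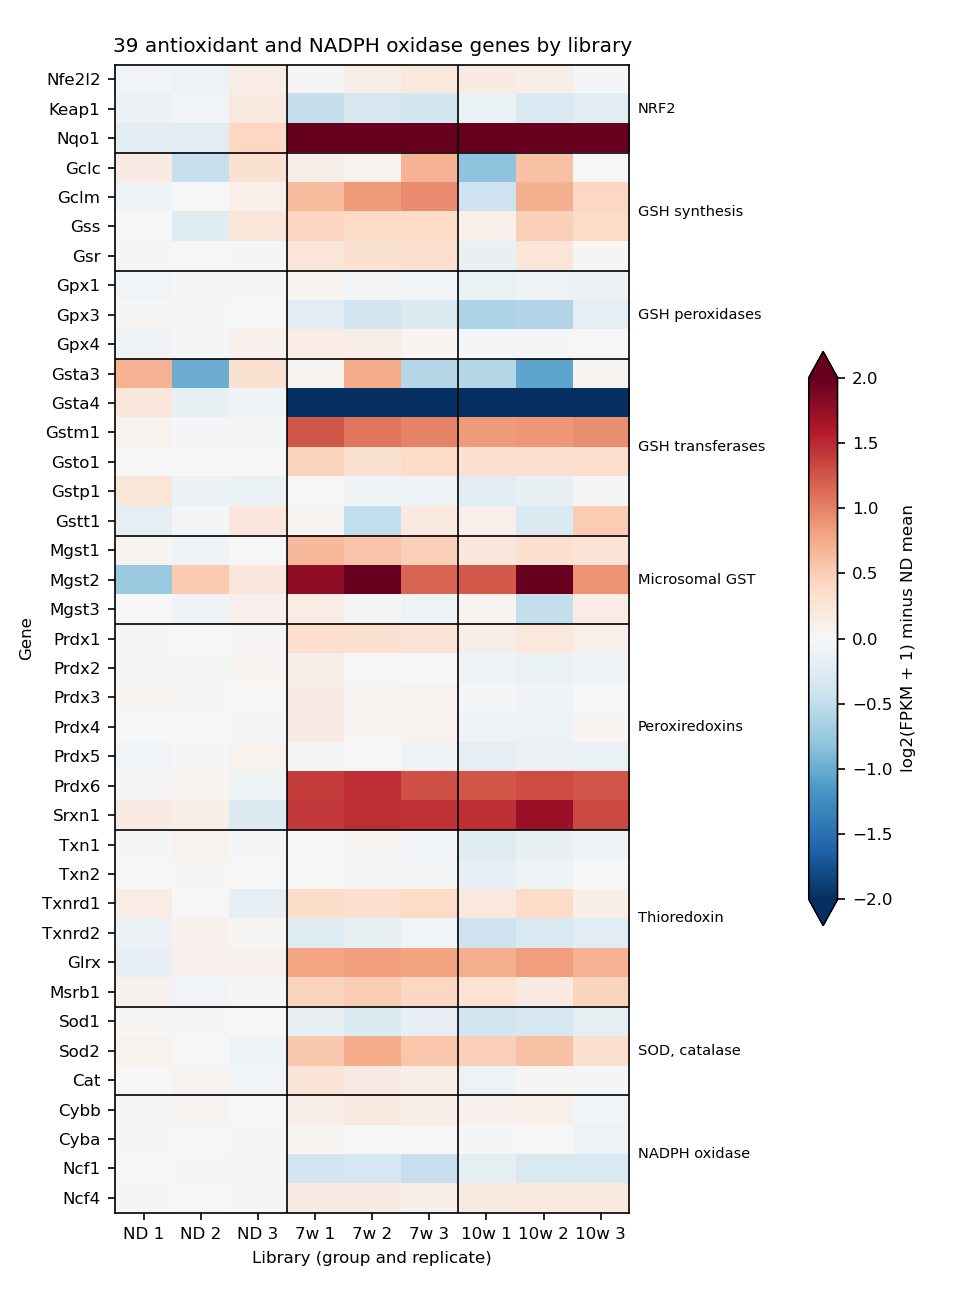
Each row is a gene, grouped by class, and each column a library; colour gives log2(FPKM + 1) minus the mean of the 3 ND libraries, clipped at 2 in either direction. Nqo1, Prdx6 and Srxn1 are red and Gsta4 blue in all 6 CDA-HFD libraries, while Cyba, Prdx2, Prdx3 and Txn2 stay pale throughout.

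NRF2 binds the antioxidant response element, searched here as TGACNNNGC on both strands of the 300 bases from 250 before to 50 after the start site in the RefSeq promoters of build GRCm38.p6. Promoters of 34 of the 39 genes were matched by symbol, and 8 of them (23.5%) held the motif, against 14.0% of 27025 genes. It was in 4 of the 12 matched genes that rose in CDA-HFD and in 4 of the other 22. Only these letters were searched, so the shares and positions leave out any other form of the element. The 8 matches are shown because they mark which genes carry the letters near the start site, each as 29 bases on the strand that reads TGACNNNGC, 5′ to 3′, with the motif in capitals.

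Srxn1, chr2:152105542-152105570, minus strand: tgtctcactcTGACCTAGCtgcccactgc
Prdx1, chr4:116685456-116685484, minus strand: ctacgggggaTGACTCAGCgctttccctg
Mgst1, chr6:138140461-138140489, minus strand: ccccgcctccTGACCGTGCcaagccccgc
Txnrd1, chr10:82859104-82859132, minus strand: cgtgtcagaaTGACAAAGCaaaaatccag
Gclm, chr3:122245413-122245441, minus strand: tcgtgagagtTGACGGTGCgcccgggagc
Nfe2l2, chr2:75704885-75704913, minus strand: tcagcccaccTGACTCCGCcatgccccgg
Gsta3, chr1:21240454-21240482, plus strand: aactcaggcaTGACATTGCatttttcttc
Sod1, chr16:90220696-90220724, minus strand: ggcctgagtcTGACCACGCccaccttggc

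Among these, Srxn1, Prdx1, Mgst1 and Txnrd1 rose in CDA-HFD, Sod1 fell, and Gclm, Nfe2l2 and Gsta3 were not called in that comparison. The Prdx1 match also holds TGANTCA, the motif of AP-1 (FOS and JUN dimers), which 6 of the 34 promoters and 8.97% of all promoters held. The Srxn1 match began 29 bases after the start site, in the transcribed sequence, and the others between 56 and 240 bases before it. Nqo1 and Gstm1, which rose, had no match in this window.

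Of the NRF2 regulators, the sensor fell and the factor itself was not called, while the target Nqo1 rose from values at or near 0. Nfe2l2 (chr2:75675513-75704641 in GRCm38, GENCODE annotation, as for the genes below), which encodes NRF2, was at 118, 114 and 135 FPKM in ND 1 to 3, 124, 134 and 142 in 7w 1 to 3 and 137, 134 and 119 in 10w 1 to 3. All groups overlapped (log2 difference 0.11, SE 0.063, adjusted p = 0.181), although the gene was called without ND 3, its highest ND library (adjusted p = 0.0374). Keap1 (chr9:21229730-21239361) was at 56.6, 59.6 and 69.9 FPKM in ND 1 to 3, 44.2, 49.2 and 47.7 in 7w 1 to 3 and 56.1, 49.99 and 52.5 in 10w 1 to 3. Every CDA-HFD library lay below every ND library, by a narrow margin in 10w 1, and Keap1 fell (log2 difference -0.30, SE 0.080, adjusted p = 0.00755), a call that was lost without ND 3 (adjusted p = 0.0551). At 7w alone the log2 fold change was -0.39 (adjusted p = 0.00473), and at 10w -0.22 (adjusted p = 0.0735).

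Nqo1 (chr8:107388225-107403206), an enzyme that reduces quinones with NADH or NADPH and a standard NRF2 target, was listed at 0, 0 and 0.54 FPKM in ND 1 to 3, 13.5, 14.1 and 14.7 in 7w 1 to 3 and 15.6, 25.4 and 18.0 in 10w 1 to 3. The gene was at the edge of detection in ND and present in all 6 CDA-HFD libraries, where the estimated reads ran from 99.4 to 200.2. Its rise (log2 difference 3.92, SE 0.22, adjusted p = 4.61e-08) has no firm size, because the fitted value depends on the pseudocount (6.48 with 0.1 and 2.06 with 5). A listed 0 is not proof of no expression in this table. Gapdh, which all cells use, was itself listed at only 0.70 to 1.18 FPKM in ND and 2.27 to 11.1 in CDA-HFD. Whether the reason for that holds for Nqo1, for which no near-identical copy was found, was not tested.

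**Figure D2:**
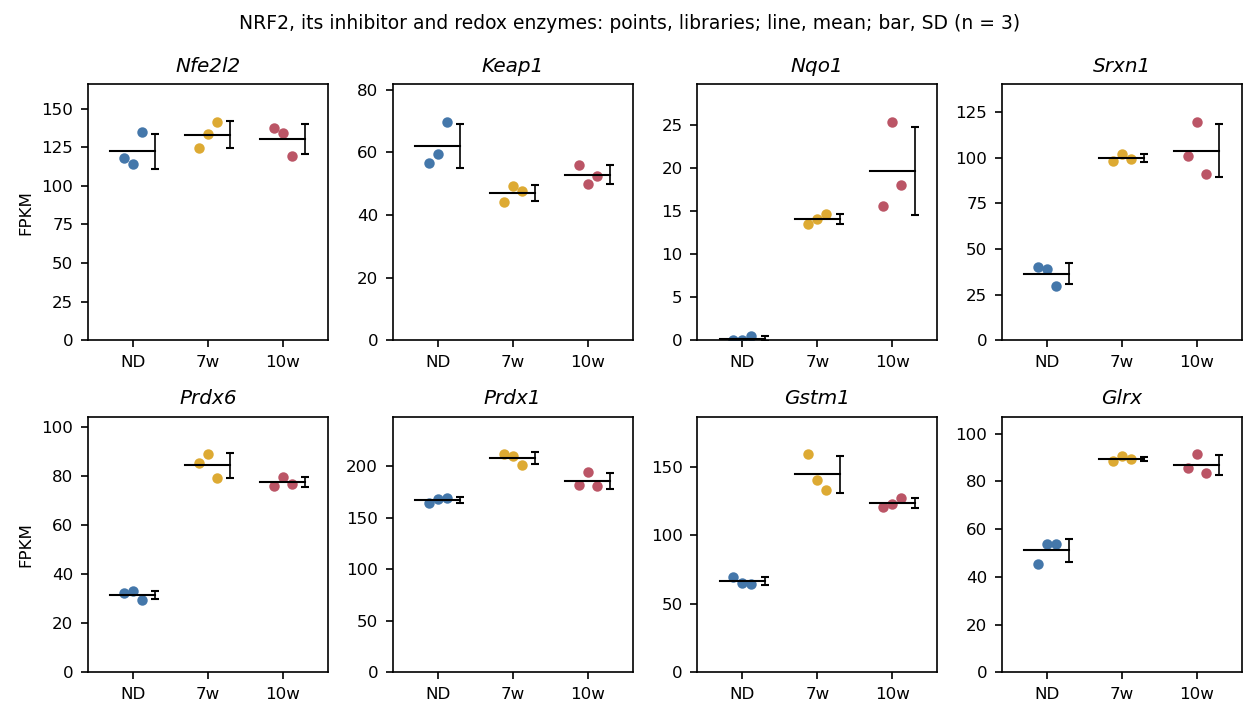
FPKM (vertical axes, from 0) in the ND, 7w and 10w libraries for 8 genes, with each point a library, the line the mean and the bar the SD of 3 libraries. Nqo1, Srxn1, Prdx6, Prdx1, Gstm1 and Glrx have all 6 CDA-HFD points above the ND points, Keap1 has them below, and the Nfe2l2 groups overlap.

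Of the 3 glutathione synthesis genes, Gclm and Gss rose at 7w, as did the reductase Gsr, and none of the 4 was called at 10w or between 10w and 7w. Gclm (chr3:122245557-122270732), the modifier subunit of glutamate-cysteine ligase, which carries out the limiting step, was at 56.3, 60.4 and 65.3 FPKM in ND 1 to 3, 94.0, 110.0 and 118 in 7w 1 to 3 and 45.3, 100.2 and 81.4 in 10w 1 to 3. Of the CDA-HFD libraries, 5 of 6 lay above all of ND, and 10w 1 lay below all of ND. Gclm rose at 7w (log2 difference 0.81, SE 0.27, adjusted p = 0.0452) but was not called at 10w (log2 difference 0.24, SE 0.27, adjusted p = 0.519) or over both (log2 difference 0.53, SE 0.23, adjusted p = 0.105). These calls hang on single libraries. Without 10w 1, which was the lowest of its group for 20 of the 39 genes, Gclm was called over both (0.69, adjusted p = 9.74e-05) and at 10w (0.57, adjusted p = 0.00226), and the call at 7w was lost in 7 of the 9 fits that left out a library (every library except 10w 1 and 10w 2).

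The catalytic subunit Gclc was at 11.8 to 20.8 FPKM in ND, 17.6 to 27.6 at 7w and 9.19 to 25.7 at 10w, with 10w 1 again the lowest, and was not called (log2 difference 0.11, SE 0.29, adjusted p = 0.781). Glutathione synthetase Gss, which adds glycine, was at 44.6 ± 7.69 FPKM in ND, 58.7 ± 1.11 at 7w and 55.7 ± 7.27 at 10w (mean ± SD, n = 3, as for all means below). Gss rose (log2 difference 0.36, SE 0.11, adjusted p = 0.0152), though not without ND 2, its lowest library (adjusted p = 0.0922). Its log2 fold change was 0.40 at 7w (adjusted p = 0.0197) and 0.32 at 10w (adjusted p = 0.0575), and the diet times differed by -0.08 (adjusted p = 0.803). Glutathione reductase Gsr, which restores glutathione from its oxidized form, was at 111 ± 2.08 FPKM in ND, 136 ± 4.62 at 7w and 115 ± 16.2 at 10w. It rose at 7w (log2 difference 0.29, SE 0.078, adjusted p = 0.00979) and was not called over both (adjusted p = 0.0608, and 0.00561 without 10w 1).

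**Figure D3:**
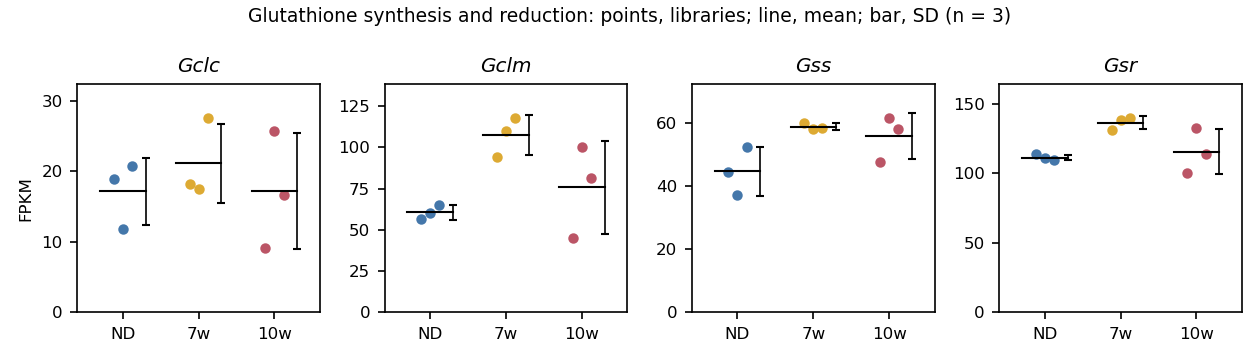
FPKM (vertical axes, from 0) of the glutathione synthesis and reduction genes in ND, 7w and 10w, with points for libraries, lines for means and bars for the SD of 3 libraries. The low point of Gclc, Gclm, Gss and Gsr at 10w is the same library, 10w 1 (45.3 FPKM for Gclm, against 100.2 and 81.4 in the others).

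Glutathione peroxidases went down or did not pass the test. Gpx3 (chr11:54902453-54910377), the secreted form, was at 162, 157 and 161 FPKM in ND 1 to 3, 139, 123 and 132 in 7w 1 to 3 and 104, 106 and 139 in 10w 1 to 3. Every CDA-HFD library lay below every ND library, and Gpx3 fell (log2 difference -0.38, SE 0.081, adjusted p = 0.00309). Gpx1, the cytosolic selenoenzyme and among the most abundant of the 39 at 294 to 311 FPKM in ND, was at 294 to 312 at 7w and 277 to 284 at 10w. It fell at 10w (log2 difference -0.12, SE 0.030, adjusted p = 0.00688), where all 3 libraries lay below ND. Gpx1 stood at 0.72 to 0.75 of the upper limit that removal of duplicate reads sets for a gene of its length. Its estimated reads ran from 1440 to 1495 over all libraries, and the part of depth was not tested. With a correction for the limit the value at 10w was -0.13 (adjusted p = 0.0141). The 10w call was lost in 1 of 20 alternatives (adjusted p = 0.184). Over both the value of -0.07 (adjusted p = 0.0492) lost its call in 14 of 20 alternatives. Gpx4, which reduces lipid peroxides in membranes and guards against ferroptosis, stood at 79.1 ± 4.58 FPKM in ND, 85.1 ± 3.69 at 7w and 77.9 ± 1.01 at 10w, and was not called (log2 difference 0.04, SE 0.052, adjusted p = 0.54). Pseudogene copies match Gpx4 at up to 99.7% identity, so its value is uncertain.

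The cytosolic glutathione transferases split, with 2 up, 1 down and 3 not called. Gsta4 (chr9:78182774-78209349), which conjugates the lipid peroxidation product hydroxynonenal, was at 17.5, 13.3 and 14.0 FPKM in ND 1 to 3, 1.20, 0 and 2.80 in 7w 1 to 3 and 1.07, 1.12 and 2.59 in 10w 1 to 3. It was the member of the 39 with the deepest fall (log2 difference -2.81, SE 0.37, adjusted p = 5.99e-05), and the CDA-HFD values rest on 0 to 12.2 estimated reads. The size depends on the pseudocount (-3.81 with 0.1 and -1.64 with 5). Gstm1 (chr3:108012255-108017973), the leading mu class enzyme, moved the other way, from 69.7, 65.5 and 64.8 FPKM in ND 1 to 3 to 159.6, 141 and 133 in 7w 1 to 3 and 120.5, 123 and 128 in 10w 1 to 3. It rose by about 1.99-fold (log2 difference 0.99, SE 0.055, adjusted p = 3.81e-08) with no overlap, and a processed copy, Gstm2-ps1, matches over 51.0% of its transcript at up to 97.9% identity. Gsto1, the omega class enzyme that reduces mixed disulfides, rose from 132 ± 1.06 FPKM in ND to 173 ± 9.47 at 7w and 166 ± 1.89 at 10w (log2 difference 0.36, SE 0.036, adjusted p = 5.10e-06).

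Gsta3, Gstp1 and Gstt1 were not called. Gsta3 varied between libraries within each group (2.30 to 9.66 FPKM in ND and 2.17 to 10.1 in CDA-HFD), Gstt1 was low at 2.04 to 3.07 and 1.46 to 3.91, and Gstp1 was at 65.1 to 84.7 and 60.7 to 70.6. Gstp1 cannot be separated from its neighbour Gstp2 with certainty, because 86.1% of its transcript is matched by Gstp2 and a pseudogene at up to 100% identity, and the table lists the pair with different behaviour. Gstp2 was at 32.5 ± 1.19 FPKM in ND, 5.06 ± 1.62 at 7w and 3.88 ± 2.29 at 10w (log2 difference -2.69, SE 0.26, adjusted p = 4.51e-06).

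The microsomal transferases, membrane proteins with both transferase and peroxidase activity, rose in 2 of 3 cases. Mgst1 (chr6:138140316-138156755) was at 131, 120.1 and 127 FPKM in ND 1 to 3, 197, 188 and 176 in 7w 1 to 3 and 147, 157 and 152 in 10w 1 to 3. Every 7w library lay above every 10w library, which in turn lay above all of ND. It rose over both (log2 difference 0.42, SE 0.042, adjusted p = 5.76e-06), and it was the only one of the 39 genes called between the diet times. Mgst2 (chr3:51660360-51682677), which can make leukotriene C4, was low at 0, 1.40 and 0.95 FPKM in ND 1 to 3, 4.71, 5.86 and 2.73 in 7w 1 to 3 and 2.92, 5.71 and 2.11 in 10w 1 to 3. Its groups did not overlap and it rose (log2 difference 1.52, SE 0.35, adjusted p = 0.00379), with a size that depends on the pseudocount (2.83 with 0.1 and 0.63 with 5). Mgst3 was at 68.0 ± 3.66 FPKM in ND and 48.7 to 75.8 in CDA-HFD and was not called (log2 difference -0.04, SE 0.12, adjusted p = 0.806).

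Among peroxiredoxins, Prdx6 and the repair enzyme Srxn1 stood out from a class whose other members moved by small amounts. Prdx6 (chr1:161240112-161251219), which reduces phospholipid hydroperoxides and uses glutathione in place of thioredoxin, was at 32.2, 33.0 and 29.7 FPKM in ND 1 to 3, 85.2, 89.1 and 79.1 in 7w 1 to 3 and 76.1, 79.8 and 76.7 in 10w 1 to 3. It rose by about 2.51-fold (log2 difference 1.33, SE 0.064, adjusted p = 1.05e-08). Srxn1 (chr2:152105516-152111376), sulfiredoxin, which returns overoxidized peroxiredoxins to service, was at 40.4, 39.1 and 29.7 FPKM in ND 1 to 3, 98.1, 102 and 99.6 in 7w 1 to 3 and 101, 119.9 and 91.2 in 10w 1 to 3. It rose by about 2.77-fold (log2 difference 1.47, SE 0.10, adjusted p = 2.32e-07), and for both genes the lowest CDA-HFD library was more than 2-fold above the highest ND library.

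Prdx1, the cytosolic enzyme, rose from 165 to 169.7 FPKM in ND to 202 to 212 at 7w and 181 to 195 at 10w (log2 difference 0.23, SE 0.032, adjusted p = 9.38e-05). Its values reach up to 0.57 of the upper limit that removal of duplicate reads sets for a gene of its length, and with a correction for that limit the log2 fold change was 0.35 (adjusted p = 2.00e-05). Prdx5, found in mitochondria, peroxisomes and cytosol, was at 288 to 317 FPKM in ND, 280.2 to 297 at 7w and 262 to 277 at 10w. It was called down (log2 difference -0.10, SE 0.033, adjusted p = 0.0283) at up to 0.77 of its limit, and the call was lost in 8 of 20 alternatives, among them trimmed-mean scaling (adjusted p = 0.206). The cytosolic Prdx2 (-0.03), the mitochondrial Prdx3 (0.03) and Prdx4 of the endoplasmic reticulum (0.02) were not called, with 95% intervals of the log2 fold change from -0.10 to 0.05, -0.07 to 0.12 and -0.07 to 0.11. Prdx1 and Prdx2 also have processed copies that match them at 98.3% and 96.3% identity.

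In the thioredoxin and glutaredoxin group the rise was carried by Glrx, Msrb1 and Txnrd1. Glrx (chr13:75839868-75850154), glutaredoxin, which removes glutathione from protein thiols, was at 45.5, 54.0 and 53.9 FPKM in ND 1 to 3, 88.7, 90.5 and 89.4 in 7w 1 to 3 and 85.4, 91.5 and 83.5 in 10w 1 to 3. The groups were far apart and tight, and Glrx rose (log2 difference 0.78, SE 0.064, adjusted p = 1.06e-06). Msrb1, a selenoprotein that repairs oxidized methionine, rose from 89.7 ± 5.05 FPKM in ND to 123 ± 4.24 at 7w and 111 ± 10.4 at 10w (log2 difference 0.38, SE 0.058, adjusted p = 2.08e-04). Txnrd1, the cytosolic thioredoxin reductase, rose from 94.1 ± 10.5 to 121 ± 2.70 and 112 ± 10.1 FPKM (log2 difference 0.31, SE 0.069, adjusted p = 0.00288), and 10w 3 lay below the highest ND library.

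Its mitochondrial counterpart Txnrd2 moved in the other direction, from 55.2 ± 3.90 FPKM in ND to 49.5 ± 3.65 at 7w and 44.3 ± 2.98 at 10w, and fell (log2 difference -0.23, SE 0.079, adjusted p = 0.0287). It dropped out of the calls without ND 2 (adjusted p = 0.127), without ND 3 (0.0891), without 7w 1 (0.0596), without 10w 1 (0.0519) and with trimmed-mean scaling (0.0649). The thioredoxins themselves were not called over both, with Txn1 of the cytosol at 136 ± 5.84, 135 ± 4.63 and 122 ± 7.09 FPKM in ND, 7w and 10w and Txn2 of mitochondria at 139.8 ± 2.58, 138 ± 1.18 and 133 ± 8.27. Txn1 fell at 10w alone (log2 difference -0.15, SE 0.052, adjusted p = 0.035), a call lost in 9 of 20 alternatives.

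The superoxide dismutases moved in opposite directions. Sod2 (chr17:13006846-13040063), the manganese enzyme of mitochondria, was at 41.9, 40.1 and 37.4 FPKM in ND 1 to 3, 58.2, 67.0 and 59.0 in 7w 1 to 3 and 55.8, 59.98 and 49.7 in 10w 1 to 3. It rose without overlap (log2 difference 0.54, SE 0.081, adjusted p = 1.71e-04). Sod1, the copper and zinc enzyme of the cytosol, fell without overlap from 149 to 154 FPKM in ND to 126 to 137 at 7w and 116 to 133 at 10w (log2 difference -0.25, SE 0.046, adjusted p = 7.90e-04), and a pseudogene matches 72.5% of its transcript at up to 97.8% identity. Catalase, Cat, which breaks down hydrogen peroxide in peroxisomes, was at 109 to 118 FPKM in ND and 125 to 135 at 7w, where it rose (log2 difference 0.19, SE 0.051, adjusted p = 0.0105), and at 106 to 115 at 10w, where it was not called (log2 difference -0.04, SE 0.051, adjusted p = 0.613).

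The phagocyte NADPH oxidase consists of a membrane core, CYBB and CYBA, and cytosolic subunits that join it on activation. Its genes moved by little and in different directions. Ncf1 (chr5:134220053-134229625), which encodes the subunit that organizes assembly, was at 153, 155 and 150.2 FPKM in ND 1 to 3, 119, 119.9 and 111 in 7w 1 to 3 and 135, 123 and 123 in 10w 1 to 3. Every CDA-HFD library lay below every ND library, and Ncf1 fell (log2 difference -0.32, SE 0.042, adjusted p = 4.65e-05). Ncf4, whose product binds membrane lipids and aids assembly on phagosomes, rose from 149.6 to 154 FPKM in ND to 164 to 171 at 7w and 172 to 174 at 10w (log2 difference 0.17, SE 0.028, adjusted p = 4.15e-04).

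Cybb, the catalytic subunit, was at 179 ± 5.500 FPKM in ND, 199 ± 4.10 at 7w and 185 ± 10.9 at 10w. It rose at 7w (log2 difference 0.15, SE 0.043, adjusted p = 0.0135), where no library overlapped with ND, and lay just outside the call over both (log2 difference 0.10, SE 0.038, adjusted p = 0.0525). With the correction for the upper limit, of which Cybb reached up to 0.57, the value over both was 0.17 (adjusted p = 0.0198), and it also passed with trimmed-mean scaling, with a filter at 5 FPKM, without ND 2 and without 10w 3. Cyba, which stabilizes it, was the most abundant of the 39 at 318 to 331 FPKM in ND and 303 to 333 in CDA-HFD and was not called (log2 difference -0.02, SE 0.023, adjusted p = 0.586). Cyba reached 0.72 to 0.79 of its limit, so its changes are compressed.

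Of 6 other oxidase genes tested, 1 rose (16.7%, with 22.8% of all genes) and 2 fell (33.3%, with 24.3% of all genes). Hvcn1, a proton channel that offsets the charge moved by the oxidase, was at 4.53, 4.42 and 5.65 FPKM in ND 1 to 3, 129, 134 and 117 in 7w 1 to 3 and 133, 138 and 117 in 10w 1 to 3. With log2 difference 4.46, SE 0.092, adjusted p = 6.22e-12, it was the gene of this list that rose. Rac2, a small GTPase of the active complex, and Noxo1, an organizer used by another oxidase, fell.

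**Figure D4:**
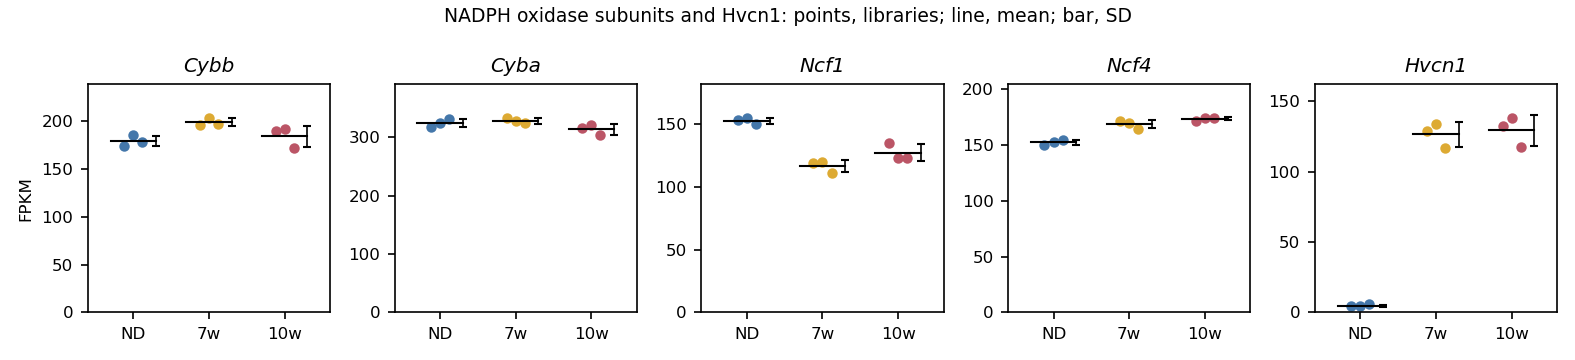
FPKM (vertical axes, from 0) of NADPH oxidase subunits and the proton channel Hvcn1 in ND, 7w and 10w, with points for libraries, lines for means and bars for the SD of 3 libraries. Ncf1 is lower and Ncf4 is higher in all CDA-HFD libraries, the Cyba groups overlap, and Hvcn1 goes from 4.42 to 5.65 FPKM in ND to 117 to 138.

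The diet times were also compared with each other. Against ND, 23 of the 39 genes were called at 7w, 18 up and 5 down (43.7% of all genes, 21.3% up and 22.4% down), and 21 at 10w, 13 up and 8 down (39.9%, 19.3% up and 20.6% down). These share the ND libraries. At 10w against 7w only Mgst1 was called, from 187 ± 10.4 to 152 ± 4.89 FPKM (log2 difference -0.30, SE 0.048, adjusted p = 0.0419), where 0.127% of all genes were called, 0.0255% down. The call was lost in 14 of 20 alternatives, with adjusted p up to 0.186, and the log2 fold change stayed between -0.34 and -0.26 when any library was left out. In all, 32 of the 39 genes had a 10w mean below the 7w mean on the log scale (51.0% of all genes did), with a median of -0.12 against -0.01 for all genes. The count was 28 and the median -0.08 with quantile normalization, and 30 and -0.11 without 10w 1. With the upper-limit correction the count was 32 and the median -0.12. Medians of other lists were -0.17 (lipid- and scar-associated macrophage), -0.12 (NRF2 partners and other targets, described below), -0.07 (Kupffer cell) and 0.11 (monocyte). Estimated depth was 5444720 to 5716770 reads at 7w and 5821440 to 6182020 at 10w, and its part was not tested. Apart from Mgst1, the 3 with the smallest adjusted p were Prdx1 (-0.16, adjusted p = 0.0949), Cat (-0.22, 0.0949) and Gpx1 (-0.10, 0.133), none of which passed. Nqo1, Srxn1, Keap1, Ncf1, Ncf4, Gsta4 and Gstt1 were the 7 with a higher 10w than 7w mean.

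**Figure D5:**
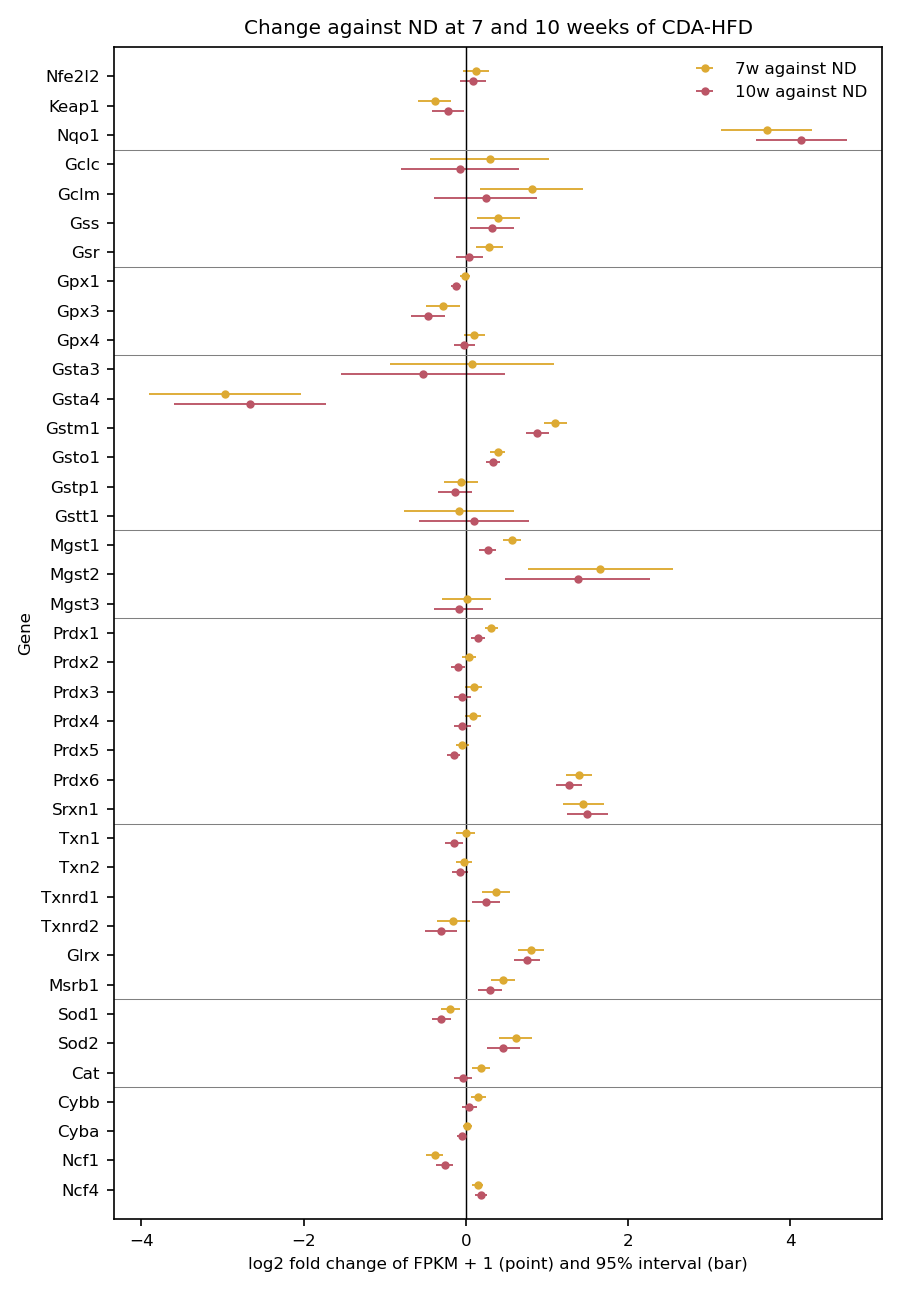
Points give the log2 fold change of FPKM + 1 against ND at 7w (yellow) and 10w (red) for each gene, and bars the 95% interval from limma, on a horizontal axis that runs over log2 units. The red point lies left of the yellow one in 32 of 39 genes, with intervals that overlap in nearly all of them.

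The wider pathways were followed in 135 listed genes outside the 39, of which 107 were tested, 36 rose and 25 fell in CDA-HFD. These were 33.6% and 23.4% of the genes tested, beside the 22.8% and 24.3% of all genes, so the share that fell was near the background. Among 25 NRF2 partners, repressors and other targets, 14 rose (56%) and 7 fell (28%). The aldo-keto reductase Akr1b8, which clears reactive aldehydes, went from 0 to 5.47 FPKM in ND to 50.01 to 98.7 in CDA-HFD (log2 difference 4.83, SE 0.54, adjusted p = 2.71e-04). Slc7a11, the cystine importer that feeds glutathione synthesis, was listed at 0.075, 0 and 0.10 FPKM in ND 1 to 3, 18.6, 22.3 and 15.5 in 7w 1 to 3 and 10.0, 14.0 and 8.36 in 10w 1 to 3 and rose (log2 difference 3.83, SE 0.22, adjusted p = 4.61e-08), with a size that depends on the pseudocount (6.53 with 0.1 and 1.93 with 5). Like Nqo1, Slc7a11 passed the filter only through CDA-HFD libraries. Ptgr1, a reductase of prostaglandins and leukotrienes, rose from 3.38 ± 0.89 FPKM to 58.2 ± 7.84 at 7w and 43.7 ± 4.17 at 10w (log2 difference 3.57, SE 0.15, adjusted p = 3.37e-09). The nuclear iron protein Pir (3.20) and the small MAF protein Maff (2.01), a DNA-binding partner of NRF2, rose as well, as did the NRF2 antagonist Bach1. With a pseudocount of 0.1 and of 5 the value was 6.01 and 1.44 for Pir and 2.48 and 1.15 for Maff.

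Not every NRF2 target rose. Hmox1, the heme oxygenase that is among the best known of them, was at 259, 264 and 261 FPKM in ND 1 to 3, 252, 239 and 224 in 7w 1 to 3 and 206, 221 and 214 in 10w 1 to 3 and fell (log2 difference -0.21, SE 0.035, adjusted p = 3.40e-04). Its log2 fold change ran from -0.32 to -0.17 over the alternatives. The biliverdin reductase Blvrb and the carbonyl reductases Cbr1 and Cbr3 fell too. Among 29 tested genes of glutathione supply, breakdown and other transferases, 9 rose (31.0%, with 22.8% of all genes) and 8 fell (27.6%, with 24.3% of all genes). The deepest falls were in Gstp2, in Oplah, which recycles oxoproline to glutamate (53.3 ± 3.63 to 6.58 ± 1.254 and 8.61 ± 2.04 FPKM, log2 fold change -2.69), in Ltc4s, leukotriene C4 synthase (153 ± 10.5 to 27.0 ± 8.87 and 29.6 ± 10.2 FPKM, -2.45), and in the peroxidase Gpx7 (-1.69).

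In NADPH supply 7 of 16 genes rose (43.8%, with 22.8% of all genes) and 4 fell (25.0%, with 24.3% of all genes). Of the 7, Pgls, Pgd, Rpe, Tkt and Taldo1 belong to the pentose phosphate pathway, and Mthfd2, a folate enzyme of mitochondria, had the largest rise of the list (12.6 ± 4.66 to 40.7 ± 7.36 and 40.7 ± 2.95 FPKM, log2 fold change 1.67). Aldh1l1, a cytosolic folate enzyme that yields NADPH, fell from 28.8 ± 2.98 to 4.55 ± 1.35 and 3.38 ± 0.99 FPKM (-2.62). Among 31 other thioredoxin, glutaredoxin and selenoprotein genes, 5 rose (16.1%) and 4 fell (12.9%), the latter including Txnip, which binds thioredoxin. Both shares were below those of all genes. Over the 107 genes the median log2 fold change was 0.07, with -0.03 for all genes tested. Kupffer cell, hepatocyte and erythroid marker levels were lower in the same libraries by the values given above. Their part and that of the B cell genes in the falls of Gsta4, Gstp2 and other genes was not tested. Nor was the part of the macrophage, monocyte, neutrophil, endothelial and stellate cell markers, or of the immediate early and dissociation genes, in the rises.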

How the data were processed

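RNA-seq libraries from Ly6C-low F4/80+ liver macrophages (3 ND, 3 at 7w, 3 at 10w) had been made with a SMART-Seq HT and a Nextera XT kit and sequenced as single-end reads of 75 bases. The submitters' processing notes name Trimmomatic (0.36.0), HISAT2 (2.2.1), featureCounts (2.0.1) and the builds GRCm38 and mm10, and duplicate reads were removed with Picard according to the study. The authors deposited 1 table of FPKM values per gene symbol. Its columns sum to 444816 to 458788, where TPM columns would share 1 total, so the test planned for FPKM was used. Of 24776 entries 1 was incomplete and left out, and entries that shared a symbol (721 entries, 257 symbols) were summed.

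Depth was estimated from low values, of which 67.0% to 73.0% lay within 0.1 of a whole read (medians of 17.5% to 19.0% at other depths), which is too few to recover counts. Removal of duplicates keeps 1 single-end read per start position and strand, so that at these depths a long gene could not exceed 324 to 370 FPKM. No gene over 3000 bases did so, and a correction for this upper limit was an alternative.

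The 11783 genes that reached 1 FPKM in 3 or more libraries were tested with limma (3.58.1, R 4.3.3, trend and robust) on log2(FPKM + 1), with 3 group means, 4 contrasts and two-sided Benjamini-Hochberg adjustment over all of them. The scale understates changes of low genes. The code was tested on simulated data with 50 changed genes of each size. It recovered 30% of 1.25-fold, 58% of 1.5-fold, 82% of 2-fold and 94% of 4-fold changes. A gene that was not called may therefore still differ. Near-identical copies were sought with blastn (at least 95% identity over 300 bases).

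The 39 genes, the other pathway genes and the marker lists were chosen with earlier results of these data known. Values in every library are given for called genes with an absolute log2 fold change of at least 0.58, the gene with the largest change of each class, genes called between 10w and 7w, and Nfe2l2 and Keap1. Outside the 39, values are given for the 12 largest called changes, Hmox1 and Slc7a11, and pathway genes named without values were chosen after those were seen, and 1 listed gene is not reported here. Alternatives were pseudocounts of 0.1 and 5, no filter or one at 5 FPKM, trimmed-mean scaling, quantile normalization, no trend or robust fit, only the groups compared, the replicate number as a block, the upper-limit correction, the highest entry per symbol and leaving out each library.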

Additional observations from a re-analysis of the deposited data

Results flagged for a closer look

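Mgst1, the microsomal glutathione transferase, was picked out because its change against ND differed between the diet times by a test of the difference itself. The change at 10w less that at 7w was -0.30 on the log2 scale (SE 0.05, adjusted p = 0.0419 by limma over all genes tested), and all 3 of the 7w libraries (176 to 197 FPKM) lay above all 3 of the 10w libraries (147 to 157 FPKM). The adjusted p ran from 0.0365 to 0.186 over the 20 alternatives.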

How the results depend on the processing

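Over the alternatives, 1995 of the values compared kept their direction and their side of the threshold, 95 lost a call, 21 gained one and 25 changed sign, none of the latter called in the fit reported. The number of the 39 genes called was 19 to 23 in CDA-HFD against ND, 16 to 24 at 7w and 16 to 22 at 10w. The share of all genes moved over the alternatives too. In CDA-HFD against ND 16.4% to 25.6% of all genes rose and 18.6% to 25.9% fell. At 7w 15.4% to 24.6% rose and 16.8% to 24.5% fell, and at 10w 13.6% to 21.8% rose and 15.2% to 22.1% fell. At 10w against 7w 0.0085% to 0.137% of all genes rose and 0% to 0.0770% fell. The number of the 39 genes called there was 0 in place of 1 with a pseudocount of 0.1, without a filter, with quantile normalization, without trend and robust, with only the groups compared, with the replicate block and with the upper-limit correction. It was 0 to 1 when a library was left out. Sign changes on leaving out a library were in Gclc (range -0.12 to 0.29), Gsta3 (-0.73 to 0.12), Gstp1 (-0.17 to 0.021), Gstt1 (-0.090 to 0.13) and Mgst3 (-0.10 to 0.055), in Gpx1 (-0.040 to 0.0030) and Txn1 (-0.027 to 0.030) at 7w, and in Gsr (-0.059 to 0.14) at 10w. Trimmed-mean scaling gave 0.0028 for Mgst3, 0.017 for Prdx2 and 0.027 for Cyba, 0.036 for Gpx1, 0.0067 for Prdx5 and 0.046 for Txn1 at 7w, and 0.0013 for Cat at 10w. Quantile normalization gave -0.014 for Prdx3 and -0.017 for Prdx4, and the upper-limit correction 0.031 for Cyba. The cause of these shifts was not tested. Deviations of same-numbered libraries from their group means correlated at -0.06 to 0.09, and those of differently numbered libraries at -0.10 to 0.08. With 3 libraries per group these values cannot tell whether the replicate numbers pair the libraries. With the replicate block 23 of the 39 genes were called in CDA-HFD against ND (22.3% of all genes rose and 24.2% fell). Gclm (adjusted p = 0.0263) and Cybb (0.0434) were added and Gpx1 (0.0823) was lost. Depth limits the low genes Nqo1, Mgst2, Gsta3, Gsta4 and Gstt1, and the upper limit compresses Cyba, Gpx1 and Prdx5.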
